A study of Mus musculus with 4 samples.

Results

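The metallothioneins and antioxidant enzymes described here are 10 genes, Mt1, Mt2, Gpx3, Gsta3, Gstm1, Sod3, Sod2, Cat, Prdx1 and Txnip, out of 28001 features shared by 4 single-cell libraries of mouse heart mesenchyme. They were picked by symbol after earlier results of these data had shown that their levels differ between fibroblast states, mural cells, the ligated heart and hashtags. The ratios below are therefore descriptions, and none of them was tested. All 10 were found in every library.

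All mice were on a C57BL/6 background. The first library held tdTomato+ cells of undamaged Hic1 CreERT2 tdTomato hearts, and the second held the same kind of cell 7 days after ligation of the left anterior descending (LAD) coronary artery, a model of myocardial infarction. The third held Hic1 Citrine+ cells of undamaged hearts, and the fourth held PDGFRa H2BEGFP+ cells (B6.129S4-Pdgfratm11(EGFP)Sor/J) of both undamaged and ligated hearts. Each tdTomato library pooled 3 hearts with no mark of origin, whereas 3 hearts in the citrine library and 4 in the PDGFRa library, 2 of them undamaged and 2 ligated, carried antibody hashtags. A CreERT2 label stays in the descendants of cells that expressed Hic1 when Cre was induced, so it need not mark the same cells as a reporter of present Hic1 or Pdgfra expression. The ages and sexes of the mice, and the time of Cre induction, are not given in the sources used here.

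Metallothioneins are small cysteine-rich proteins that bind zinc and copper, and their genes are switched on by zinc through the factor MTF1 and also by glucocorticoids and by inflammatory cytokines. Superoxide dismutases turn superoxide into hydrogen peroxide, which catalase, glutathione peroxidases and peroxiredoxins then remove. Glutathione transferases join glutathione to reactive products of oxidation, and TXNIP binds thioredoxin and holds it inactive. In the infarcted heart these systems meet the oxidants made by damaged muscle and by inflammatory cells.

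Mt1 (ENSMUSG00000031765) and Mt2 (ENSMUSG00000031762) are neighbours on the plus strand of chromosome 8 in the GRCm38 build, Mt1 at 94179082 to 94180327 and Mt2 at 94172664 to 94173568, with 5513 bases between them. None of the other 8 genes lies on that chromosome. The 250 bases before the RefSeq start of each metallothionein are shown because the pair had the widest range of levels among cells. Their windows also differ in matches to TGCNCNC. This is a looser pattern than the metal response element core, TGCRCNC, where R is A or G. The windows are chr8:94178839-94179088 for Mt1 and chr8:94172368-94172617 for Mt2, both on the plus strand of GRCm38.p6, written 5′ to 3′, with capitals marking TGCNCNC on either strand.

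Mt1: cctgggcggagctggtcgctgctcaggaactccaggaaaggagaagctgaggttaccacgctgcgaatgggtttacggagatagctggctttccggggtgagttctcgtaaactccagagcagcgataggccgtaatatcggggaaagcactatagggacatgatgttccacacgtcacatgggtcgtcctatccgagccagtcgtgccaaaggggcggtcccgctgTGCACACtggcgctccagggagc

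Mt2: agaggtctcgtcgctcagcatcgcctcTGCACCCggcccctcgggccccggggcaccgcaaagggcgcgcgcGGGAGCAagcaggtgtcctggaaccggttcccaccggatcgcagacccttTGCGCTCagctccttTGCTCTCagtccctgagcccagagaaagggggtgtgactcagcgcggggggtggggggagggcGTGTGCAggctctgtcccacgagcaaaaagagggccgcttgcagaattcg

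The Mt2 window held 5 matches to TGCNCNC and the Mt1 window 1. In Mt2, GGGAGCA (read on the other strand) and TGCTCTC have T where the core has R, so they match only the looser pattern. At least 5 matches to the looser pattern were found in 0.344% of 32851 RefSeq windows of the same length. At least 1 was found in 44.4%, so a single match is common. Of the other members with a window, both Gstm1 windows held 3 and the Txnip window 1. The core of the antioxidant response element, TGACNNNGC on either strand, occurred once each in the windows of Mt2, Gsta3 and Prdx1, against at least 1 in 10.2% of all windows. These are matches of letters only. The RefSeq starts are not the only annotated ones. For Mt1, 2 of its 3 GENCODE transcripts start 123 and 153 bases after the last base of the window. The 2 Mt2 transcripts start 47 and 243 bases after the last base of its window. Bases between the windows and those starts were not searched.

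The other members are spread over 7 chromosomes of the same build. Gpx3 lies on chromosome 11 (54902453 to 54910377) and Gsta3 on chromosome 1 (21240589 to 21265661). Gstm1 (108012255 to 108017973, minus strand) and Txnip (96557957 to 96561883) are both on chromosome 3. Sod3 is on chromosome 5 (52363791 to 52371418), Sod2 on chromosome 17 (13006846 to 13040063), Cat on chromosome 2 (103453849 to 103485160, minus strand) and Prdx1 on chromosome 4 (116685544 to 116700822). All 10 are annotated as protein coding in GENCODE vM21, and UMIs are summed over all exons of a gene, so isoforms are not told apart.

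The libraries held 2853, 4292, 11338 and 13830 cell barcodes (in the order given above), of which 2786, 4263, 10838 and 12567 were kept. Median depth was 3453 and 3668 unique molecular identifiers (UMIs) per kept cell in the tdTomato libraries and 8038.5 and 7729 in the others. Fibroblast-like cells made up 87.2%, 73.3%, 95.2% and 99.2% of kept cells. The 8 fibroblast markers together reached 45299 to 84319 CPM (UMIs scaled to a common total) in them, while the macrophage and monocyte list stayed between 8.53 and 13.6 CPM. Pericyte-like cells numbered 179, 782 and 220 in undamaged tdTomato, ligated tdTomato and citrine cells, and smooth-muscle-like cells 165 and 301 in the tdTomato libraries. In the citrine library the pericyte-like cells carried 22644 CPM of fibroblast markers against 14167 CPM of pericyte markers, so their label rests on mixed profiles. At Leiden resolution 0.5 these 220 cells were called mixed and not pericyte-like. The citrine and PDGFRa libraries had 35 barcodes in common, and every other pair of libraries had 8 or fewer. Cell classes were rebuilt from marker genes, and a difference from the study's own classes may come from that.

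Levels in CPM are the UMIs of a gene summed over a group of cells and divided by all UMIs of that group, that is, shares of RNA and not amounts per cell. Each condition was 1 library. The 95% intervals are exact for Poisson counts and cover counting error only, not the spread between cells or between animals. CPM is compared here between cells for 1 gene at a time, and the order of genes below is by UMI counts at the 3′ end, which do not scale with transcript length.

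Among fibroblast-like cells Mt1 was the member with the highest level in all 4 libraries, at 2818 CPM in undamaged tdTomato, 1963 in ligated tdTomato, 1084 in citrine and 2479 in PDGFRa cells. Mt2 stood at 871, 681, 186 and 445 CPM in the same order. Gpx3, the secreted glutathione peroxidase of plasma, was measured at 1530, 1694, 965 and 638 CPM. Gstm1, a cytosolic glutathione transferase, gave 1190, 763, 913 and 516 CPM. Prdx1, an abundant cytosolic peroxiredoxin, was the steadiest of the 10 across libraries, at 791, 790, 767 and 757 CPM. The 2 undamaged libraries with a Hic1 label were not alike: Mt1 was 2818 CPM in tdTomato and 1084 CPM in citrine cells. Label, hashing, depth and library were all different between them, and the kit may have been, and these cannot be told apart.

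Txnip was higher in the 2 hashed libraries, with 523 CPM in citrine and 418 in PDGFRa cells against 288 and 208 in undamaged and ligated tdTomato cells. Gsta3, an alpha-class glutathione transferase, stayed between 124 and 199 CPM. Sod3, the secreted superoxide dismutase that binds to the matrix, ranged from 153 CPM in ligated tdTomato to 308 CPM in citrine cells. Mitochondrial Sod2 lay between 71.9 and 106 CPM. Cat, the catalase of peroxisomes, was the lowest member in every library, at 31 to 48.1 CPM. Of the last 500 transcript bases of Prdx1, 50.6% of the 50-base windows also occur in the pseudogenes Gm15974, Gm21399 or Gm7204, so its counts are uncertain. The same share was 5.1% for Sod2 and 0.887% for Gstm1, and 0 for the other members.

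**Figure D1:**
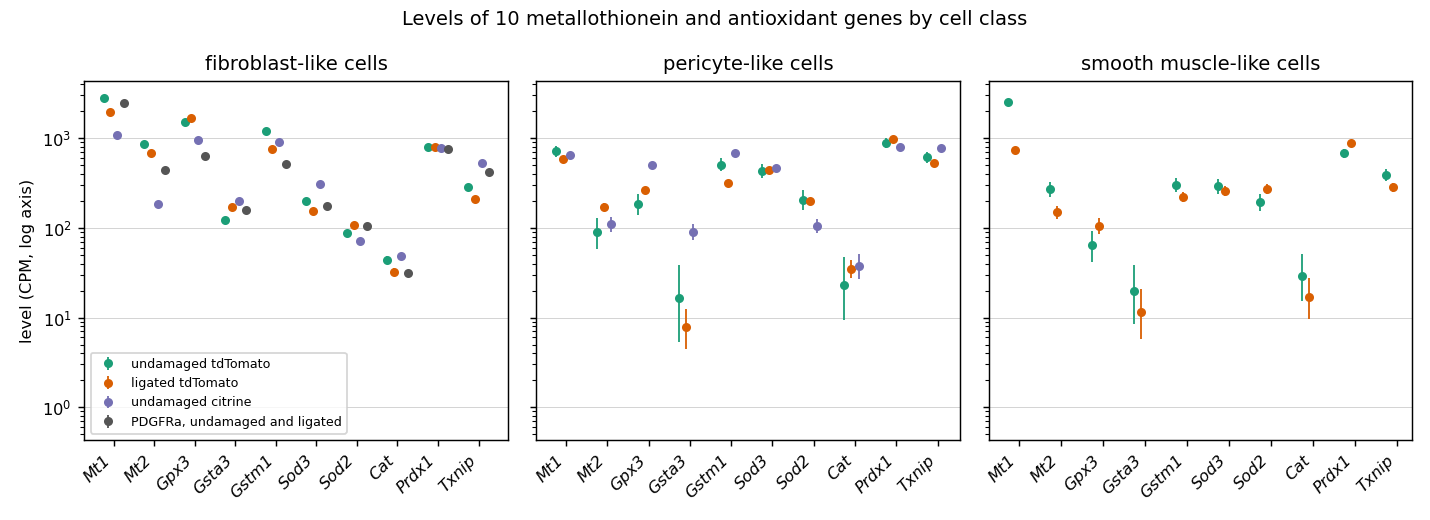
Level of each of the 10 genes (CPM, log axis) in each cell class of each library, 1 point per class and library, with bars for 95% Poisson intervals. Mt1 lies at 1084 to 2818 CPM in fibroblast-like cells, and Cat at 31 to 48.1 CPM.

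Comparing ligated with undamaged tdTomato cells asks how the label's descendants differ after infarction. In fibroblast-like cells 6 members were lower in the ligated library with intervals below 1, 3 were higher with intervals above 1, and the interval of Prdx1 covered 1. Of all 12293 genes compared, 25.5% had an interval below 1 and 18.3% one above 1. No member was past 2-fold in either direction. Among the same genes, 2.81% were past 2-fold higher and 4.2% past 2-fold lower. The median log2 ratio was −0.38 over the members and −0.06 over all genes.

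Gstm1 differed by the largest factor on the lower side, 1190 CPM in undamaged and 763 in ligated cells, a ratio of 0.641 (95% interval 0.624 to 0.658). Mt1 had a ratio of 0.697 (0.685 to 0.709) and Mt2 of 0.782 (0.759 to 0.806). Both metallothioneins were thus lower in the ligated library, while the ratio of Mt2 to Mt1 UMIs moved little, from 0.309 to 0.347. Txnip was at 0.721 (0.684 to 0.760), Cat at 0.744 (0.650 to 0.853) and Sod3 at 0.759 (0.713 to 0.808). On the higher side Gsta3 went from 124 to 170 CPM, a ratio of 1.37 (1.27 to 1.47). Sod2 had 1.22 (1.12 to 1.33) and Gpx3 1.11 (1.08 to 1.13). Of the 2 secreted enzymes, Sod3 was thus lower and Gpx3 higher. Prdx1 gave 0.998 (0.969 to 1.03). The summed level of the dissociation and immediate early list was 19281 CPM in undamaged and 27274 CPM in ligated fibroblast-like cells, and its part in these ratios was not tested.

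The comparison was repeated within fibroblast states. In cells other than the Sca1-high, Wif1, activated and interferon states, Mt1 had a ratio of 0.806, Gstm1 of 0.729 and Txnip of 0.729 (0.687 to 0.773), while Gsta3 had 1.47 and Sod2 1.35. These values kept the direction seen over all fibroblast-like cells, in a set where 1.84% of genes were past 2-fold higher and 3.55% past 2-fold lower. Sca1-high cells, a state marked by Pi16 and Dpp4, differed in some members. Gsta3 was past 2-fold higher there, at 50.6 CPM in undamaged and 129 in ligated cells (2.54, 1.87 to 3.51), where 2.85% of genes were past 2-fold higher and 2.93% past 2-fold lower. Gpx3 was at 1.56 (1.45 to 1.67), Sod2 at 1.52 and Txnip at 1.38 (1.12 to 1.71). Txnip was thus higher in ligated Sca1-high cells and lower in the ligated cells of no named state, and the difference between these ratios was not tested.

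**Figure D2:**
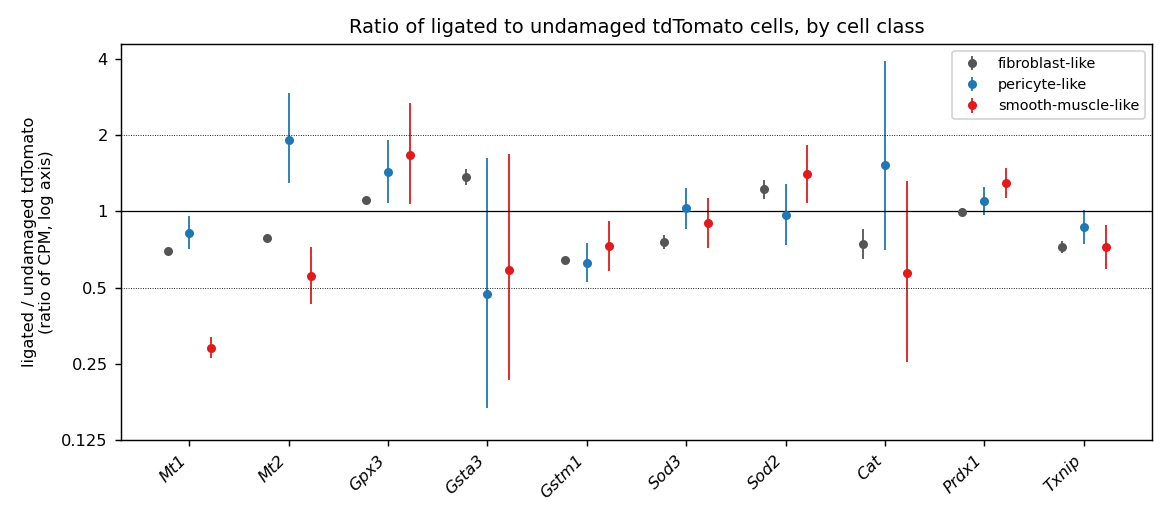
Ratio of CPM in ligated over undamaged tdTomato cells (log axis) with 95% Poisson intervals, for the 10 genes in fibroblast-like, pericyte-like and smooth-muscle-like cells. Fibroblast-like ratios lie between 0.641 and 1.37, and the Mt1 ratio in smooth-muscle-like cells is 0.290.

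In smooth-muscle-like cells Mt1 was the only one of the 9 members entered that was past 2-fold, at 2552 CPM in the undamaged and 739 CPM in the ligated library, a ratio of 0.290 (0.263 to 0.319). Background shares were 4.59% higher and 4.43% lower, or 3.77% and 5.54% with median-of-ratios scaling, under which Mt1 was still the one member past 2-fold. Mt2 went from 270 to 150 CPM, a ratio of 0.557 (0.431 to 0.721). Sod2 was at 1.40 (1.08 to 1.82) and Prdx1 at 1.29 (1.13 to 1.49), whereas Gstm1 was at 0.729 (0.581 to 0.917) and Txnip at 0.725 (0.593 to 0.887). Gpx3 was at 1.66 (1.07 to 2.67), from 26 and 101 UMIs. Both Gpx3 levels, relative to fibroblast-like cells, lay within the range of fibroblast genes given below, so free RNA cannot be told from expression. Fibroblast markers summed to 3481 CPM in undamaged and 2279 CPM in ligated smooth-muscle-like cells, and their part was not tested. The tenth member, Gsta3, had 8 UMIs in the undamaged and 11 in the ligated library and was not entered. The dissociation and immediate early list summed to 33282 CPM in undamaged and 19893 CPM in ligated smooth-muscle-like cells, the reverse of its order in fibroblast-like cells. Its part in the Mt1 difference was not tested.

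Pericyte-like cells had a different order for Mt2, the metallothionein with the lower level. Mt2 was at 88.9 CPM (27 UMIs) in the undamaged and 170 CPM (372 UMIs) in the ligated library, a ratio of 1.91 (1.29 to 2.93). Mt1 was at 715 and 589 CPM, a ratio of 0.824 (0.713 to 0.956). Gstm1 was lower, at 0.625 (0.524 to 0.749), and Gpx3 higher, at 1.43 (1.08 to 1.91). The undamaged Gpx3 level came from 56 UMIs. Relative to fibroblast-like cells, the undamaged Mt1 and Mt2 levels and both Gpx3 levels lay within the range of fibroblast genes given below. Free RNA cannot be told from expression for those levels. Gsta3 was past 2-fold lower at 0.470, but from 5 and 17 UMIs, and its interval of 0.167 to 1.63 covers 1. Of all genes compared here, 4.7% were past 2-fold higher and 8.47% past 2-fold lower. The intervals of Sod3, Sod2, Cat, Prdx1 and Txnip all covered 1. The fibroblast marker sum was 6292 CPM in undamaged and 2589 CPM in ligated pericyte-like cells, and the dissociation list 10722 and 7430 CPM, and their part in these ratios was not tested.

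These ratios depended on which clusters made up the class. At Leiden resolution 0.5, where the undamaged class grew to 342 cells with the smooth-muscle-like ones in it and the ligated class to 817, the ratio of Mt1 was 0.414, of Mt2 1.11, of Gpx3 4.32, of Gsta3 1.28 and of Gstm1 0.991. With the ligated cluster of mixed markers counted as pericyte-like, Mt1 was at 1.01, Mt2 at 2.23, Gpx3 at 2.07, Gsta3 at 1.10 and Gstm1 at 0.731.

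The ligated pericyte-like cells were made of 2 clusters that did not resemble each other in the metallothioneins. The larger, with 490 cells and led by Art3 and Kcnj8, had Mt1 at 326 CPM and Mt2 at 45.5 CPM. The smaller, with 292 cells and led by Rgs16, Igfbp5 and Ngfr, had Mt1 at 833 CPM and Mt2 at 285 CPM. The pooled Mt2 ratio therefore averages a cluster below the undamaged level of 88.9 CPM and one above it. Gpx3 followed the same order, with 49.3 CPM in the larger and 461 CPM in the smaller cluster, and Txnip the opposite one, with 696 and 378 CPM. The fibroblast marker sum was 1357 and 3731 CPM in the larger and smaller cluster, and the dissociation list 4274 and 10355 CPM. Their part in these differences was not tested.

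Within a library, mural and fibroblast-like cells went through the same dissociation and capture, so their comparison is free of differences between libraries. The classes still differed in the dissociation and immediate early list. It summed to 10722 CPM in pericyte-like, 33282 in smooth-muscle-like and 19281 in fibroblast-like cells of undamaged tdTomato. In the ligated library these sums were 7430, 19893 and 27274 CPM. Citrine pericyte-like cells had 13794 and fibroblast-like cells 17733 CPM. The list's part in the ratios between these classes was not tested. In undamaged tdTomato cells the pericyte-like class was past 2-fold higher than the fibroblast-like class for 3 members and past 2-fold lower for 5. The background was 24.6% of genes higher and 9.92% lower. In the ligated library 2 were higher and 5 lower, against 14.8% and 12.3%. In the citrine library none was past 2-fold higher and 1 was lower, against 21.0% and 5.56%.

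Sod3, Sod2 and Txnip were the members with more RNA share in pericyte-like cells. Sod3 was higher by 2.14 (1.78 to 2.56) in undamaged, 2.90 (2.68 to 3.13) in ligated and 1.51 in citrine cells. Txnip was higher by 2.13 (1.82 to 2.47), 2.55 (2.39 to 2.73) and 1.49, and Sod2 by 2.34 (1.78 to 3.04), 1.86 and 1.47. The 3 genes thus had ratios above 1 in all 3 libraries. Their ratios were smaller in the citrine library, whose pericyte-like cells carried the most fibroblast RNA. The median log2 ratio over all genes was 0.27 in the citrine comparison. Prdx1 stayed close to even, between 1.04 and 1.23. Median-of-ratios scaling lowers the log2 ratios of all genes in this comparison by 0.23 in undamaged and 0.22 in ligated tdTomato cells. It leaves 1 member past 2-fold higher and 5 lower in the undamaged library, where 18% and 13.2% of genes then pass, and 2 and 5 in the ligated one, where 10.6% and 15.1% pass. The Prdx1 ratio is then 0.961 in undamaged and 0.978 in citrine cells. At Leiden resolution 0.5, with the smooth-muscle-like cells in the undamaged class, the undamaged ratios of Sod3 and Txnip were 1.75 and 1.70, inside 2-fold.

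Lower in pericyte-like cells were the metallothioneins, both glutathione transferases and Gpx3. Mt1 had ratios of 0.254, 0.300 and 0.602 (undamaged tdTomato, ligated tdTomato, citrine) and Mt2 of 0.102, 0.249 and 0.588. Gpx3 had 0.121, 0.155 and 0.522, Gsta3 0.133, 0.0457 and 0.452, and Gstm1 0.426, 0.416 and 0.746. Free fibroblast RNA in droplets gives a floor for such ratios. In undamaged pericyte-like cells the fibroblast genes Lum, Dcn, Gsn, Dpt, Col1a1 and Col3a1 had ratios of 0.0414, 0.0569, 0.0749, 0.0758, 0.146 and 0.293. The Mt2, Gpx3 and Gsta3 ratios lay above those of Lum, Dcn, Gsn and Dpt and below that of Col1a1. Free RNA and expression cannot be told apart there, so these data do not show that undamaged pericyte-like cells express them. Mt1 lay below only Col3a1, which is still inside the range of the 6, so it cannot be told from free RNA by this measure either. Gstm1 lay above all 6. In ligated pericyte-like cells the same genes had 0.0186 (Dcn) to 0.239 (Col3a1), below Mt1 and Mt2 there. The Gpx3 and Gsta3 ratios of 0.155 and 0.0457 lay inside that range, so they cannot be told from free RNA by this measure. Gpx3 was at 49.3 CPM in the larger and 461 CPM in the smaller ligated pericyte-like cluster, where Dcn was at 258 and 400 CPM. In citrine pericyte-like cells the 6 fibroblast genes had 0.365 (Gsn) to 0.479 (Col3a1). That range holds the citrine Gsta3 ratio, which likewise cannot be told from free RNA. At resolution 0.5 the undamaged ratios were 0.619 for Mt1, no longer past 2-fold, 0.204 for Mt2 and 0.0576 for Gpx3, and the ligated Gsta3 ratio was 0.107. With the mean over cells of each cell's CPM in place of summed UMIs, the undamaged ratios were 0.0774 for Gpx3 and 0.080 for Gsta3, and the citrine Gsta3 ratio was 0.227.

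Smooth-muscle-like cells also had low Gpx3 and glutathione transferases, while their Mt1 was low in the ligated library and nearly even in the undamaged one. Gpx3 was at 0.0416 in the undamaged and 0.0626 in the ligated library, within the ratios of the fibroblast genes there, which ran from 0.0220 (Lum) to 0.0467 (Gsn) and from 0.0183 (Col1a1) to 0.0735 (Gsn). These Gpx3 values cannot be told from free RNA, nor can the ligated Gsta3 ratio of 0.0681, which lay inside the same range. With the mean over cells the Gpx3 ratios were 0.0270 and 0.0396 and the ligated Gsta3 ratio 0.0421. The undamaged Gsta3 ratio was 0.158, and Gstm1 had 0.255 and 0.290. Mt1 was nearly even with fibroblast-like cells in the undamaged library, at 0.905, and at 0.376 in the ligated library, while Mt2 was at 0.31 and 0.22. Sod2 was past 2-fold higher in both, at 2.22 and 2.55, Sod3 was at 1.44 and 1.70, and Txnip at 1.35 and 1.36. In all, 1 member was past 2-fold higher in each library, and 4 and 5 were past 2-fold lower, against backgrounds of 16.5% and 15.3% in the undamaged and 14.6% and 15.8% in the ligated library. Smooth-muscle-like cells were also set against pericyte-like cells of the undamaged library, whose Mt1 and Mt2 lay within the range of fibroblast genes given above. The smooth-muscle-like cells had 3.57 times the Mt1 level (3.08 to 4.15) and 3.03 times the Mt2 level. In this comparison 7.6% of genes were past 2-fold higher and 15.6% past 2-fold lower. The ligated library did not repeat this: smooth-muscle-like cells had 739 CPM of Mt1 against 589 in pericyte-like cells, a ratio of 1.26 (1.14 to 1.38), and 150 CPM of Mt2 against 170, a ratio of 0.886 (0.725 to 1.08). No member was past 2-fold higher there and 1, Gpx3 at 0.403, was past 2-fold lower, against 5.14% and 10.2% of genes, or 7.24% and 6.62% with median-of-ratios scaling.

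Fibroblast states were compared with the other fibroblast-like cells of the same library. The clusters were made without the members and without the wider lists of related genes, but a cluster set against the rest is no test. The activated-like state, marked by Postn and Cthrc1, held 314 cells in undamaged and 402 in ligated tdTomato, 943 in citrine and 1333 in PDGFRa. It was not the same state in each: Cthrc1 was at 12.8 and 19.0 CPM in the undamaged tdTomato and citrine states and at 1620 and 1967 CPM in those of ligated tdTomato and PDGFRa. Its cells were also deep, with median UMIs of 4080, 7874.5, 11040 and 17057, which CPM scales for.

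In the activated-like state of the ligated tdTomato library 6 members were past 2-fold lower and none higher, where 7.3% of genes were past 2-fold lower and 7.51% higher. Gsta3 was at 11 CPM against 219 CPM in the other fibroblast-like cells, a ratio of 0.0502. Gstm1 was at 94.8 against 973 CPM, a ratio of 0.0975. Gpx3 was at 710 against 2003 CPM (0.355), Mt1 at 863 against 2309 CPM (0.374) and Txnip at 94.6 against 243 CPM (0.389), and Mt2 had a ratio of 0.445. Sod3 at 0.706, Sod2 at 0.771, Prdx1 at 0.956 and Cat at 1.04 were not past 2-fold, so the 6 low members here were the metallothioneins, the glutathione-linked enzymes and Txnip. The Gsta3 ratio was 0.121 and the Gstm1 ratio 0.232 at Leiden resolution 0.5. The dissociation list summed to 14898 CPM in activated-like cells and 32125 CPM in fibroblast-like cells of no named state, with 8 of its 15 genes past 2-fold lower, and its part in these ratios was not tested.

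The PDGFRa library, from other mice with another reporter, gave a like list. There 6 members were past 2-fold lower in activated-like cells and none higher, with 11.6% of genes past 2-fold lower and 6.4% higher and a median log2 ratio of −0.16 over all genes. Gsta3 was at 8.96 against 194 CPM (0.0462), Gstm1 at 50.3 against 632 CPM (0.0796) and Txnip at 104 against 497 CPM (0.210). Gpx3 had 0.307, Sod3 0.390 and Mt1 0.481, with Mt2 at 0.699. Prdx1 was higher, at 1.30. With median-of-ratios scaling, which raises the log2 ratios here by 0.16, 5 members were past 2-fold lower, Mt1 being at 0.539, against 9.27% of genes lower and 8.09% higher. Mt1 was also inside 2-fold with the mean over cells (0.521), without hashtag 2 (0.597) and at Leiden resolution 0.5 (0.691), where Sod3 was at 0.515, and Mt2 was at 0.450 at resolution 2. The dissociation list was at 16126 CPM in activated-like cells and 27029 CPM in cells of no named state, with 3 of 15 genes past 2-fold lower, and its part was not tested.

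In the undamaged libraries the activated-like state was closer to the rest for most members. Gpx3, Gsta3 and Txnip were past 2-fold lower in undamaged tdTomato cells, at 0.357, 0.265 and 0.382, while Mt1 was at 1.09, Mt2 at 1.32 and Gstm1 at 0.613. In citrine cells Gpx3 was at 0.493, Gsta3 at 0.399, Mt1 at 0.550, Txnip at 0.583 and Gstm1 at 0.636. The counts past 2-fold lower were 3 and 2, against backgrounds of 4.23% and 4.59%, with 3.84% and 4.28% higher. Gpx3 and Gsta3 were thus past 2-fold lower in the activated-like state of all 4 libraries, except that at Leiden resolution 2 their citrine ratios were 0.666 and 0.557. At the same resolution the undamaged tdTomato ratios were 0.665 for Mt1 and 0.748 for Mt2, turning their direction, and 0.212 for Gpx3. The dissociation list was at 19278 CPM in activated-like and 19888 CPM in no-named-state cells of undamaged tdTomato, and at 13652 and 20095 CPM in those of citrine, with none of its genes past 2-fold lower in either, and its part was not tested.

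Hashtags gave the same comparison within hearts of the PDGFRa library. Activated-like cells made up 17.7% of the fibroblast-like cells under hashtag 1 and 17.7% under hashtag 2, while 0 of 981 and 0 of 1644 cells were of this state under hashtags 3 and 4, which allows shares of up to 0.306% and 0.182%. Within hashtags 1 and 2, Gsta3 had ratios of 0.0491 and 0.0509, Gstm1 of 0.0884 and 0.122, Txnip of 0.260 and 0.308, Gpx3 of 0.314 and 0.391, and Mt1 of 0.480 and 0.346. Prdx1 was at 1.28 in both. In the citrine library the 3 hashtags gave Gsta3 ratios of 0.377, 0.322 and 0.461 and Gpx3 ratios of 0.483, 0.481 and 0.493. Prdx1 was at 0.894, 0.992 and 0.982 there. Gsta3 and Gpx3 were thus below 1 within every hashtag that held the state, while Prdx1 was above 1 in PDGFRa and below 1 in citrine hashtags.

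**Figure D3:**
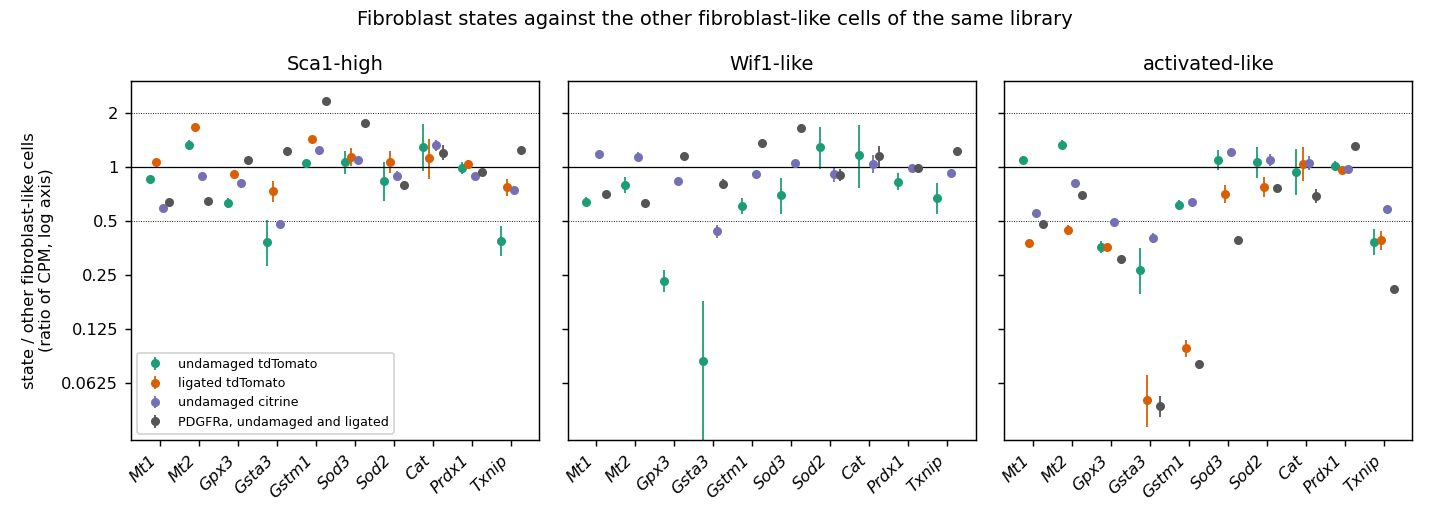
Ratio of CPM in each fibroblast state over the other fibroblast-like cells of its library (log axis), by gene and library, with bars for 95% Poisson intervals and dotted lines at 2-fold. The ratios of Gsta3 and Gstm1 in activated-like cells are 0.0502 and 0.0975 in ligated tdTomato and 0.0462 and 0.0796 in PDGFRa cells.

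Sca1-high cells (233, 440, 1768 and 1678 cells) had no member that was past 2-fold in all libraries. Gsta3 was at 0.381 in undamaged tdTomato, 0.729 in ligated tdTomato, 0.478 in citrine and 1.23 in PDGFRa cells. Gstm1 was at 1.04, 1.42, 1.24 and 2.32, and Txnip at 0.387, 0.766, 0.743 and 1.23. Cat was above 1 in all 4, at 1.29, 1.11, 1.32 and 1.20, as was Sod3, at 1.06, 1.13, 1.09 and 1.75, but the intervals of Cat in both tdTomato libraries and of Sod3 in the undamaged one covered 1. At Leiden resolution 0.5 the undamaged tdTomato ratio of Txnip was 0.506 and the citrine ratio of Gsta3 0.520, or 0.514 without hashtag 3. The PDGFRa ratio of Gstm1 was 1.73 with the mean over cells, 1.86 against cells of no named state and 1.96 without hashtag 2, all inside 2-fold. Members past 2-fold numbered 2 lower in undamaged tdTomato, none in ligated tdTomato, 1 lower in citrine and 1 higher in PDGFRa cells. The background shares past 2-fold lower were 7.2%, 6.34%, 6.26% and 9.81%, and those higher were 4.01%, 2.58%, 3.3% and 4.29%.

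The PDGFRa ratios of this state are sums over hearts that did not go the same way. Within hashtags 1 to 4 the Gsta3 ratio was 1.62, 1.57, 0.597 and 0.571, and the Txnip ratio was 1.46, 1.72, 0.638 and 0.624. The Gpx3 ratio was 1.21, 1.18, 0.659 and 0.717. Gstm1 was above 1 in each, at 2.95, 3.23, 1.12 and 1.35. In level, Gsta3 in Sca1-high cells was 151, 134, 177 and 214 CPM, while in fibroblast-like cells of no named state it was 129, 120, 350 and 423 CPM. Gsta3 thus varied less between hashtags in Sca1-high cells than in cells of no named state. The citrine ratios were closer together, with Gsta3 at 0.479, 0.563 and 0.346 and Txnip at 0.722, 0.719 and 0.730.

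The Wif1 state, marked by Wif1 and cartilage matrix genes, held 131 cells in undamaged tdTomato, 747 in citrine and 982 in PDGFRa. In undamaged tdTomato cells Gsta3 was at 0.0822 (0.0301 to 0.179, from 6 UMIs) and Gpx3 at 0.231, with Gstm1 at 0.603, Mt1 at 0.636 and Txnip at 0.667. In citrine cells Gsta3 was at 0.438 and Mt1 at 1.18, and in PDGFRa cells Sod3 was at 1.65, Gstm1 at 1.35 and Gsta3 at 0.802. Members past 2-fold lower numbered 2, 1 and 0 in the same order, and none was past 2-fold higher. Background shares were 9.51% higher and 7.48% lower, 6.56% and 3.69%, and 6.36% and 5.12%, in that order. Gsta3 was below 1 in all 3, and the Gpx3 ratio went from 0.231 to 1.15. The undamaged tdTomato ratios of Gsta3 and Txnip were 0.172 and 0.393 at Leiden resolution 0.5. At resolution 2 the citrine ratios were 0.493 for Mt1, 0.524 for Mt2, 0.295 for Gpx3, 0.212 for Gsta3, 0.563 for Gstm1 and 0.485 for Txnip, and the PDGFRa ratios 1.09 for Sod3 and 2.06 for Txnip. By hashtag of the PDGFRa library, the Gsta3 ratio of this state was 1.37, 0.926, 0.309 and 0.469 and the Gstm1 ratio 2.31, 1.89, 0.701 and 0.684, so the hearts differed in direction here too.

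The interferon state, marked by Ifit1 and Isg15, held 70, 25, 300 and 312 cells, and Gsta3 was above 1 in it in every library, at 1.75, 2.16, 1.48 and 1.08. Sod2, the mitochondrial dismutase, was at 1.92, 1.81, 1.23 and 1.02. In PDGFRa cells both intervals covered 1. Only Gsta3 in the 25 ligated tdTomato cells was past 2-fold, in a comparison of few counts with a median log2 ratio of 0.60 over all genes. Shares past 2-fold higher and lower were 12.4% and 3.31% in undamaged tdTomato, 35.3% and 2.9% in ligated tdTomato, 6.16% and 2.06% in citrine and 6.71% and 1.73% in PDGFRa cells.

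Single clusters spread further than named states. Over fibroblast-like clusters of at least 100 cells in undamaged tdTomato cells, Mt1 ran from 800 CPM in a cluster of 220 cells led by Lect1 and Cxcl14 to 8504 CPM in one of 225 cells led by Il6, Tnfaip6, Ptx3 and Ccl7, a 10.6-fold range. Mt2 ran from 143 to 2593 CPM, 18.1-fold. Those leading genes encode an inflammatory cytokine, chemokines and proteins released in inflammation. The dissociation and immediate early list stood at 27200 CPM in the high and 11240 CPM in the low cluster.

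In the other libraries Mt1 ranged 7.21-fold in ligated tdTomato (631 to 4551 CPM), 4.48-fold in citrine (577 to 2584 CPM) and 6.44-fold in PDGFRa cells (1183 to 7619 CPM). The highest cluster of ligated tdTomato was led by Inmt, Ccl11 and Slc10a6, and that of PDGFRa by Slc10a6 and Tslp. The dissociation list was at 12684 CPM in the lowest and 41923 CPM in the highest Mt1 cluster of ligated tdTomato, and at 26556 and 42370 CPM in those of PDGFRa. In these 3 libraries the cluster with the most Mt1 thus also had more of the dissociation list than the cluster with the least, and its part was not tested. Gsta3 was highest in a cluster led by Blnk in each library, with Cd83 among the leading genes in all but citrine, at 279, 330, 404 and 491 CPM, with ranges of 25.8, 29.9, 6.66 and 54.8-fold. Prdx1 varied least in the tdTomato libraries, 1.27 and 1.14-fold.

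**Figure D4:**
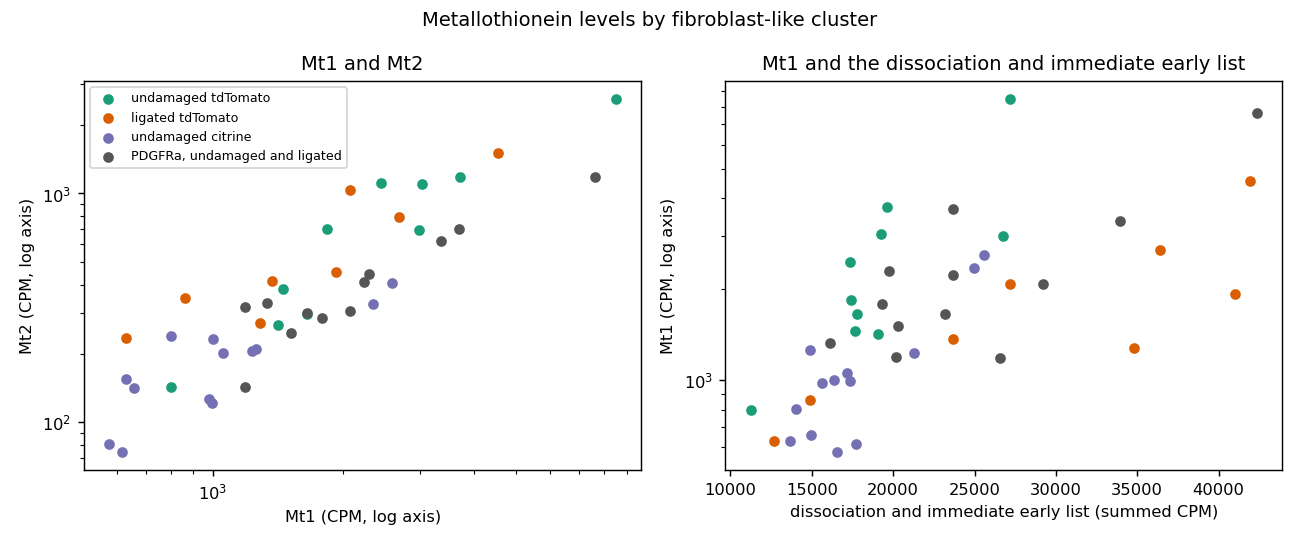
Fibroblast-like clusters of at least 100 cells, 1 point each, by library: left, Mt2 against Mt1 (CPM, log axes), and right, Mt1 (log axis) against the summed CPM of the dissociation and immediate early list (linear axis). In undamaged tdTomato cells the clusters run from 800 to 8504 CPM of Mt1 and from 143 to 2593 CPM of Mt2.

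Across 50 clusters of at least 100 cells, with log2(CPM + 10) centred within each library, Mt1 and Mt2 had a Pearson correlation of 0.905. These correlations are descriptions, since clusters of a library share its cells, depth and free RNA. Of 5957 genes compared, those most like Mt1 were Socs3 (0.858), Junb (0.849) and Zfp36 (0.839), and those most like Mt2 were Tnfaip6 (0.901), Hk2 (0.838) and Myc (0.806). The glutathione-linked members were alike: Gpx3 with Gsta3 gave 0.794 and Gsta3 with Gstm1 0.784. Most like Gsta3 were Ms4a4d (0.928), Slco2b1 (0.920) and Hsd11b1 (0.909), the last an enzyme that regenerates active glucocorticoid. Most like Gpx3 were Celf2 (0.935), Bicc1 (0.930) and Dpep1 (0.927), a peptidase of glutathione breakdown.

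For Gstm1 the closest was Abca6 (0.904), for Sod3 Sema6d (0.879), for Sod2 Mir143hg (0.816), for Cat Ssbp3 (0.758) and for Prdx1 the proteasome subunit Psmb2 (0.904). Among the genes most like Txnip were Rem1 (0.850) and Ggt5 (0.831). Sod2 ran against Gpx3 (−0.744) and Txnip against Mt2 (−0.581), but over the 43 fibroblast-like clusters alone these were −0.207 and −0.454. Over those 43 clusters Txnip went with Gsta3 (0.823) and Gpx3 (0.814), and Mt1 with Mt2 (0.902). Gstm1 went with Gpx3 (0.744), Gsta3 (0.759) and Txnip (0.759), and Sod2 with Mt1 (0.557) and Mt2 (0.561).

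Within cells, Mt1 was unevenly spread. After every fibroblast-like cell was thinned to 2000 UMIs, which kept 2212, 2989, 10226 and 12333 cells, the mean was 5.62, 4.19, 2.34 and 5.19 UMIs of Mt1 per cell, and the median 2, 1, 1 and 2. The richest cells had 84, 68, 87 and 92 UMIs. The 10% of cells with the most Mt1 held 48.2%, 46.1%, 58.3% and 48.6% of its UMIs, and for Mt2 65.3%, 60.7%, 73.3% and 59.8%. The variance of Mt1 was 13.9, 9.41, 9.81 and 12.9 times its mean (the Fano factor, which is 1 for pure counting). Mt1 and Mt2 counts of single cells had correlations of 0.594, 0.502, 0.417 and 0.581. At least 1 Mt1 UMI was seen in 66.5% (64.5 to 68.5) of thinned cells of the undamaged tdTomato library, and in 74.0% of unthinned cells.

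Hashtags gave the spread over hearts. In the citrine library (1251, 2948 and 2176 fibroblast-like cells under hashtags 1 to 3), all from undamaged hearts, Mt1 was at 1351, 1119 and 1165 CPM and Gsta3 at 228, 202 and 191 CPM. The highest over the lowest hashtag was 1.03 to 1.37 for the 10 members, and none reached 1.5. Of all genes with a mean of at least 20 CPM over these hashtags, 2.28% did. Hashtags were not assigned for 37.9% of citrine and 27.6% of PDGFRa cells.

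In the PDGFRa library (2828, 3572, 981 and 1644 cells under hashtags 1 to 4) 8 of the 10 members differed by at least 1.5 between the highest and lowest hashtag, as did 26.5% of all genes with a mean of at least 20 CPM over the hashtags. The labels do not say which hashtags are of undamaged and which of ligated hearts, so no hashtag is assigned to a condition here. Gsta3 was at 95.9, 88.4, 272 and 342 CPM, a 3.87-fold spread. Txnip was at 242, 298, 651 and 835 CPM, 3.45-fold, and Gstm1 at 309, 315, 1042 and 894 CPM, 3.37-fold. For all 3 genes hashtags 1 and 2 had the lower values and hashtags 3 and 4 the higher ones. Gpx3 followed the same order, at 540, 501, 862 and 909 CPM, as did Sod3, at 142, 145, 224 and 266 CPM. The share of all genes split in this way between the hashtags was not counted, so the split is a description only.

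The metallothioneins and Sod2 had the opposite order. Mt1 was at 2589, 2872, 1868 and 1828 CPM and Mt2 at 542, 488, 261 and 281 CPM, a 2.08-fold spread. Sod2 was at 128, 106, 85.6 and 76.4 CPM. Prdx1, at 774, 759, 781 and 702 CPM, and Cat, at 31.2, 30.3, 36.5 and 32.6 CPM, were nearly even. Cat was also lower under hashtags 1 and 2, but within a 1.20-fold spread. Postn ran from 189 CPM under hashtag 3 to 3889 CPM under hashtag 2 and Cthrc1 from 14.5 CPM under hashtag 4 to 1134 CPM under hashtag 2. Median depth was 10034.5, 10581, 6573 and 6707.5 UMIs and the dissociation list 22273, 24349, 26503 and 22620 CPM, and the part of depth was not tested.

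The hashtag order was also present outside the activated-like state. In fibroblast-like cells of no named state Gstm1 was at 373, 367, 1088 and 882 CPM, Txnip at 301, 357, 795 and 974 CPM and Mt1 at 3236, 3755, 2091 and 1968 CPM. Sod2 was at 148, 121, 80.6 and 73.2 CPM there. The spread between hashtags was thus as wide, or nearly so, with the named states left out. The PDGFRa activated-like state held 1333 cells at Leiden resolution 1, 3362 at 0.5 and 819 at 2. Which cells have no named state therefore depends on the resolution.

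**Figure D5:**
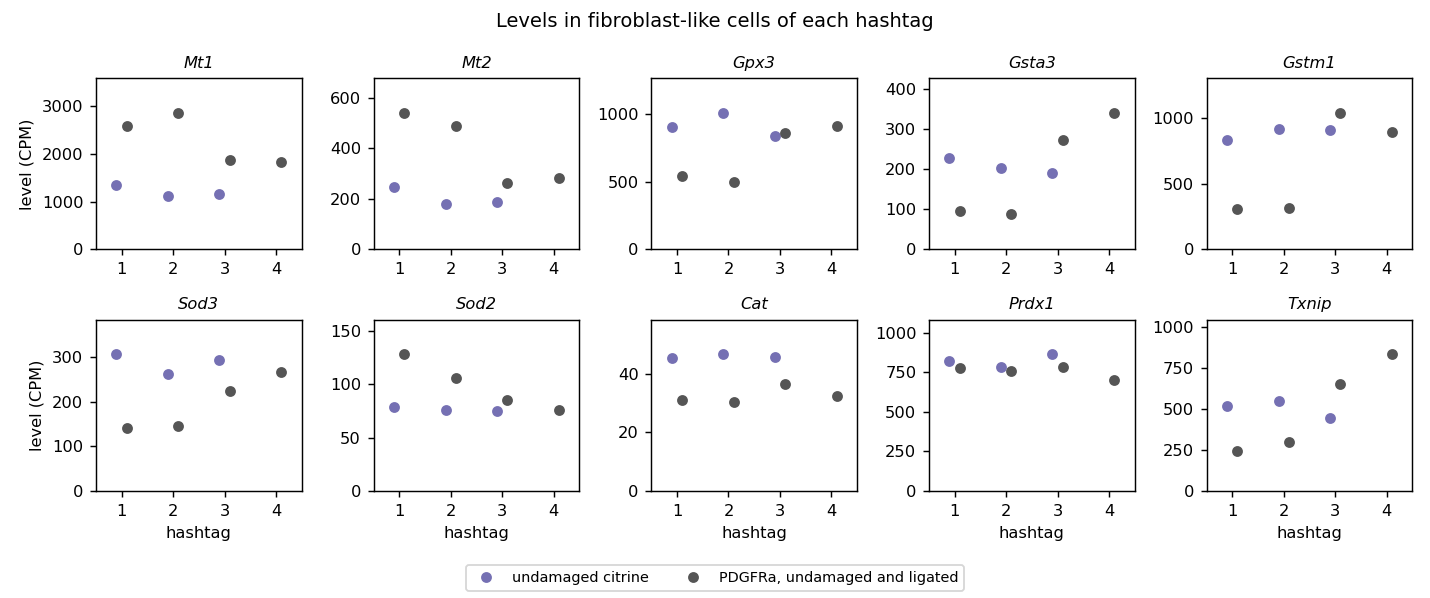
Level of each gene (CPM, linear axis from 0) in fibroblast-like cells by hashtag, 1 point per hashtag, for the citrine and PDGFRa libraries. PDGFRa hashtags run from 88.4 to 342 CPM for Gsta3, and citrine hashtags from 191 to 228 CPM.

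Related genes were taken from 11 lists, which also hold the 10 members. In the ligation comparison of fibroblast-like cells 130 of 141 genes had enough counts, of which 3 were past 2-fold higher and 7 past 2-fold lower, beside 2.81% and 4.2% of all genes. The dissociation and immediate early list gave all 3 higher genes, Jun (2.77), Hsph1 (2.30) and Zfp36 (2.14), out of 15, with a median log2 ratio of 0.46. Glutathione transferases had 2 of 19 lower and none higher, Gsta4 at 0.217 and Gsto2 at 0.330, with Gsto1, the omega-class enzyme, at 1.95. Metal handling genes had none of 21 past 2-fold, and their median was −0.06, equal to that of all genes at this precision. The NRF2 list, targets of the main oxidant-sensing factor, had none of 16, with Slc7a11 at 1.89 (0.82 to 4.87) and Nqo1 at 0.590.

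Glucocorticoid responsive genes had 2 of 11 lower, Sgk1 at 0.391 and Errfi1 at 0.455, with a median of −0.54. The list around Txnip had 2 of 10 lower, Ddit4 at 0.241 and Mlxipl at 0.391. Oxidant producing enzymes had 1 of 7 lower, Aox3 at 0.246, with Xdh at 0.524. Peroxiredoxins and thioredoxins had none of 17, with Srxn1 at 1.53 and Txnrd1 at 1.42. The glutathione peroxidase and synthesis list (12 genes), the superoxide dismutases and catalase (5) and the selenoproteins (10) also had none. Of the regulators, Mtf1, the metal sensor, was at 1.09 (0.89 to 1.34), Nfe2l2 at 0.687 (0.637 to 0.741), Keap1 at 0.905, Bach1 at 0.926, Nr3c1, the glucocorticoid receptor, at 0.843, Foxo1 at 0.675, Foxo3 at 0.877 and Mlxip at 1.15.

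In the activated-like state 8 of 17 glutathione transferases were past 2-fold lower in ligated tdTomato and 11 of 20 in PDGFRa cells, where 7.3% and 11.6% of all genes were. In undamaged tdTomato and citrine cells 1 of 19 and 2 of 20 were, beside 4.23% and 4.59% of all genes. These counts include the member Gsta3 in every library, and the member Gstm1 in ligated tdTomato and PDGFRa cells. Gsto1 was higher, at 4.16 in ligated tdTomato and 2.69 in PDGFRa cells. Hsd11b1 was at 0.0329 and 0.0486 and Ggt5, which breaks down extracellular glutathione conjugates, at 0.0819 and 0.0763. Peroxiredoxins and thioredoxins had 1 of 17 past 2-fold higher and none lower in ligated tdTomato cells, and none of 17 in PDGFRa cells.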

How the data were processed

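The deposited files of the 4 libraries hold whole UMI counts for every gene in each cell barcode. Per the labels' protocols, reads were aligned with Cell Ranger against mm10 with additions. Per the file headers, version 3.0.2 wrote the counts of citrine and PDGFRa cells. Seurat 2.1 is named in the submitters' processing notes, but the deposited counts are whole and not normalised. Chromium 3′ v2 reagents and a NextSeq 500 were used, per the labels. The barcode sets of the tdTomato and the hashed libraries differed, however, with at most 2 barcodes in common. Whether all 4 libraries used the same kit is thus uncertain.

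The 10 members and all lists were chosen with earlier results of these data known. Barcodes under 500 genes or 1000 UMIs, or over 10% mitochondrial UMIs, were dropped, and no doublet caller was run. Each library was clustered alone (10000-UMI scaling, 2000 variable genes, 30 components, 20 neighbours, Leiden resolution 1; scanpy 1.11.5, leidenalg 0.10.2, Python 3.11.15), leaving out 149 genes, namely the members and the listed genes that are no marker. Clusters were named from marker lists, needing 3 or more markers that were each seen in 25% of cells. A mural or endothelial cluster with at least 50% of the fibroblast markers detected was called mixed, a rule added after the clusters were seen. Such a cluster of 35 ligated tdTomato cells (0.821%) was left out of every class. Fibroblast states needed 60% of their markers past 2-fold. A hashtag needed at least 10 UMIs and 70% of a cell's hashtag UMIs.

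UMIs were summed over cells and scaled to CPM, and the ratios printed hold no pseudocount. A pseudocount of 1 UMI was used for calls past 2-fold and for median log2 ratios. Genes under 20 UMIs in both sums together did not enter. Ratios carry exact 95% Poisson intervals and the share of cells an exact Clopper-Pearson interval. Named genes were the members, the 3 highest and 3 lowest of each related list under ligation, 8 regulators, the 3 genes most like each member (mean of at least 20 CPM) and the markers; genes leading clusters, Gsto1, Hsd11b1 and Ggt5 in the activated-like state were chosen after their values were seen. A gene that this rule names is not reported here. Alternatives were Leiden resolutions of 0.5 and 2, other filters, pseudocounts and scalings, and a stricter hashtag rule. Promoter windows came from the RefSeq table of GRCm38.p6, which matched 9 of 10 members, and gene positions from GENCODE vM21. Ratio intervals were run on simulated Poisson counts only, which do not hold the spread between cells.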

Additional observations from a re-analysis of the deposited data

Results flagged for a closer look

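Mt2 differed in direction between cell classes under ligation. Its ligated over undamaged ratio was 1.91 in pericyte-like cells, 0.782 in fibroblast-like cells and 0.557 in smooth-muscle-like cells, with the counting intervals of the first and of the others on opposite sides of 1. The difference between these ratios was not tested, each being between 1 library and another. At Leiden resolution 0.5 the pericyte-like ratio was 1.11, with the undamaged smooth-muscle-like cells in that class. The undamaged pericyte-like level came from 27 UMIs of Mt2, found in 6.70% of 179 cells, and the counting intervals leave out the spread between cells. That level is within the range of the fibroblast genes, where free RNA and expression cannot be told apart.

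Txnip, likewise, had a ratio of 1.38 in Sca1-high fibroblast-like cells and of 0.729 in fibroblast-like cells of no named state. The difference was not tested.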

How the results depend on the processing

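No paired analysis of ligated against undamaged cells was possible because each group was 1 library and the labels give no replicate numbers. States were set against the rest within each hashtag of the citrine and PDGFRa libraries, without a test. Of 145 alternative counts, 135 stayed within 1.5 times the value reported and 10 did not. The count of all genes past 2-fold between ligated and undamaged fibroblast-like cells went from 346 higher and 516 lower to 183 and 181 with at least 100 UMIs and to 702 and 2352 with no filter, and the lower genes of the related lists from 7 to 4 and 12. At Leiden resolution 0.5 the pericyte-like members with a ligated over undamaged ratio below 1 went from 5 to 3, and the members below 1 in ligated Sca1-high cells from 3 to 5. With the mean over cells in place of summed UMIs, members below 1 in PDGFRa Sca1-high cells went from 4 to 7. With a hashtag share of 90%, 1 member reached 1.5-fold between citrine hashtags. The Gsta3 ratio in pericyte-like cells, 0.470 as reported, was 1.28 at resolution 0.5 and 1.10 with the mixed cluster counted as pericyte-like, an alternative chosen after seeing the data, as was the comparison of states with cells of no named state. The cause of these changes was not tested, other than the count filters, which set how many genes enter. Of 53 member ratios past 2-fold, 52 stayed on their side of 1 under every alternative run, and of 137 others 101 did. An alternative moved 30 of the 190 ratios by over 1.5 times, in pericyte-like, smooth-muscle-like, activated-like and Wif1 cells. Alternatives brought 11 of the 53 inside 2-fold, in pericyte-like, Sca1-high and activated-like cells. Resolution 0.5 gave no value for some classes. Undamaged smooth-muscle-like cells had merged with the pericyte-like ones there, and the 220 citrine pericyte-like cells were called mixed. Gsta3 and Cat had the fewest UMIs of the members in every mural cluster of the tdTomato libraries, which limits their ratios there.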
